A study of Homo sapiens with 6 samples.

Results

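The lipid droplet set held 10 genes by name: the perilipins PLIN2, PLIN3, PLIN4 and PLIN5, the CIDE proteins CIDEB and CIDEC, the droplet biogenesis gene FITM2, and the lipolysis genes PNPLA2, ABHD5 and G0S2. Matching by gene symbol found 9 of them among 19846 genes, and G0S2 was not analysed here. The genes were chosen by function and were selected on their expression differences between the 2D and 3D cultures in these same libraries. Their values are therefore given as descriptions, without p-values. A gene is said to have risen or fallen, or to be called, where it passed an adjusted p of 0.05 in the edgeR fit over all 15314 genes tested. All 9 genes passed the filter on low counts.

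HepG2, a human liver tumour cell line at passage 7 to 9, was cultured on flat plates (called 2D, with 3 samples) or inside a bioreactor of interwoven hollow fibers (called 3D, with 3 samples). Plate cells started at 200000 per cm2 in EMEM, renewed every 2 days. Bioreactor cells received equal parts of EMEM and DMEM with 10% FBS, recirculated at 23.5 mL/min and fed at 2 mL/hour, with a gas flow of 200 mL/min. No serum percentage is given for the plates, so whether serum differed between the cultures is not known. Culture form, medium and feeding changed together and cannot be told apart. Whether replicates were independent cultures is not stated in the labels, so the errors cover the spread between these samples, which may be technical.

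Lipid droplets store triglycerides and cholesterol esters in a core bounded by a single layer of phospholipid and a coat of proteins. PLIN2 and PLIN3 coat droplets in most cells, whereas PLIN5 belongs to cells with high fatty acid oxidation, where it ties droplets to mitochondria, and PLIN4 and CIDEC are best known from fat cells. PNPLA2 (the lipase ATGL) starts triglyceride breakdown, ABHD5 (CGI-58) activates it, and perilipins can hold ABHD5 away from the lipase. In the liver these proteins set how much fat is kept, burned or passed to lipoproteins, and CIDEB takes part in loading lipid onto very low density lipoprotein.

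Between the cultures the set split. In 3D, PLIN5, PLIN4 and PNPLA2 fell, and CIDEC, PLIN2, CIDEB and PLIN3 rose, while FITM2 and ABHD5 were not called. The largest differences were a 7.43-fold lower level of PLIN5 and a 3.67-fold higher level of CIDEC. With 4 of 9 higher and 3 of 9 lower, the share called was read beside the 36.6% of all tested genes called in either direction (19.0% higher and 17.6% lower), and nothing is drawn from it because this contrast was known when the set was made. The number of members higher was 1 without 2D replicate 1, 2 without 2D replicate 2, 2D replicate 3 or 3D replicate 3, and 2 after correction for transcript length and GC content. The median log2 fold change was 0.00 over the 9 genes and 0.02 over all tested genes. In 7 of the 9 genes the 2D and 3D samples did not overlap, 4 with higher and 3 with lower 3D samples, beside 50.5% of all tested genes (25.6% higher and 24.9% lower).

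The 250 bases upstream of the RefSeq start are shown for the members with the largest difference in each direction, for PLIN4, which lies next to PLIN5 and fell with it, and for PLIN2, the most abundant member. They are read 5′ to 3′ on the minus strand of GRCh38.p14, and capitals mark each ACGTG or GCGTG, the core letters bound by hypoxia-inducible factors, on either strand. The windows are chr19:4535225-4535474 for PLIN5, chr19:4518487-4518736 for PLIN4, chr3:9880254-9880503 for CIDEC and chr9:19127493-19127742 for PLIN2.
PLIN5: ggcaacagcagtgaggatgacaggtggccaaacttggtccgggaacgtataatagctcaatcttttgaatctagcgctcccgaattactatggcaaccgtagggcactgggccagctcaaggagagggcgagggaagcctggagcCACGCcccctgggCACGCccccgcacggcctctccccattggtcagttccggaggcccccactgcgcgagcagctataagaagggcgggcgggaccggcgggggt
PLIN4: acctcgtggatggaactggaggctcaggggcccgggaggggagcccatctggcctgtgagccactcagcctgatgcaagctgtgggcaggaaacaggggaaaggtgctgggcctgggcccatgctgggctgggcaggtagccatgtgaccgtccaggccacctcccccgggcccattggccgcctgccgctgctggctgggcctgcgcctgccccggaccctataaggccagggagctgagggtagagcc
CIDEC: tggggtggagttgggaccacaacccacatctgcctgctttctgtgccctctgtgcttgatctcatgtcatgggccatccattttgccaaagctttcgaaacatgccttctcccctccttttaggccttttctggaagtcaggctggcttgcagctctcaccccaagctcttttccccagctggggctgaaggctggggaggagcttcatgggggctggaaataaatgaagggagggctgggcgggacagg
PLIN2: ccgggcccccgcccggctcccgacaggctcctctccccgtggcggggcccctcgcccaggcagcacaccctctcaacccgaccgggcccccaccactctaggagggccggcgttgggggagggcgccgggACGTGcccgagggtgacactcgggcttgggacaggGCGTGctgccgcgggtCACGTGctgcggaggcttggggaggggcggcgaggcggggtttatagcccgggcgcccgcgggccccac
The PLIN2 window held ACGTG beginning 120, 69 and 68 bases upstream, the last 2 being both strands of the E-box CACGTG, and GCGTG beginning 85 bases upstream. The PLIN5 window held GCGTG 105 and 92 bases upstream. Neither PLIN4 nor CIDEC held these letters in this window.

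In all, 7 motifs were searched on both strands in the first listed window of each of the 9 members and in 35116 RefSeq windows of the same length. ACGTG was in 1 of 9 members (PLIN2) and 18.5% of all windows, GCGTG in 6 of 9 (PLIN2, PLIN3, PLIN5, CIDEB, FITM2 and ABHD5) and 32.2%, and CACGTG, which contains ACGTG, in 1 of 9 (PLIN2) and 6.34%. AGGTCA, the half-site of many nuclear receptors, was in 1 of 9 (PNPLA2) and 12.1%, and the sterol element TCACCCCAC was in 1 of 9 (PNPLA2) and 0.362%. The paired nuclear receptor element DR1, 2 half-sites spaced by 1 base, and the cAMP element TGACGTCA were in 0 of 9, against 0.0171% and 1.65% of all windows. The 35116 windows were not matched to the members in GC content, which ran from 56.4% (CIDEC) to 78% (PLIN2) in the member windows. These matches describe letters, not bound sites, and nothing is drawn from the shares. The count table is by gene, so the start used in these cells is not known. RefSeq lists 2 starts for CIDEC, 2 for CIDEB and 3 for ABHD5, and the PLIN2 start lies 21799 bases inside the gene span of the count table.

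PLIN2 (chromosome 9, 19108375 to 19149291, hg38), the general droplet coat protein of liver cells, was the most abundant member in both cultures. Levels are given as CPM, counts relative to the TMM-scaled library total. PLIN2 stood at 297, 308 and 281 CPM in 2D replicates 1 to 3 and at 369, 558 and 398 CPM in 3D replicates 1 to 3. Every 3D sample lay above every 2D sample, and 3D replicate 2 was well above the other 3D samples. PLIN2 rose by 0.58 on the log2 scale (SE 0.16), and its mean was 295 ± 13.6 CPM in 2D and 442 ± 102 CPM in 3D (SD, n = 3 per group). Its call was lost without 2D replicate 1 (log2 0.58) and without 2D replicate 3 (log2 0.54), and after the length and GC correction with a replicate block (log2 0.39). Without 3D replicate 2 the log2 fold change was 0.37 and still called.

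PLIN3 (chromosome 19, 4838341 to 4867769), a coat protein that moves from the cytosol to newly formed droplets, measured 72.0, 75.7 and 71.2 CPM in the 2D samples and 108, 85.4 and 93.7 CPM in the 3D samples. The groups did not overlap, but the smallest gap between them was narrow beside the spread of the 3D samples. PLIN3 rose 1.31-fold (log2 0.39, SE 0.12). It lost its call without 2D replicate 1 (log2 0.37), 2D replicate 2 (0.40), 2D replicate 3 (0.36), 3D replicate 1 (0.28) or 3D replicate 3 (0.40). With transcript length and GC content corrected its log2 fold change was 0.11 (95% interval -0.08 to 0.31), and it was not called.

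PLIN4 (chromosome 19, 4502180 to 4518466), a perilipin with a long repetitive helix that covers droplet surfaces, measured 15.6, 19.3 and 14.4 CPM in the 2D samples and 10.0, 6.65 and 6.89 CPM in the 3D samples. All 3D samples lay below all 2D samples, and 3D replicate 1 was the nearest to them. PLIN4 fell by 1.08 on the log2 scale (SE 0.20), from 16.4 ± 2.55 to 7.85 ± 1.88 CPM. PLIN5 (chromosome 19, 4522531 to 4535225) measured 12.5, 15.2 and 9.44 CPM in the 2D samples and 2.08, 1.49 and 1.48 CPM in the 3D samples. The lowest 2D sample was several times the highest 3D sample, whose 3 values rest on only 21, 23 and 21 counts. PLIN5 fell by 2.89 on the log2 scale (SE 0.26, 95% interval -3.46 to -2.32), and 0.111% of all tested genes had a lower log2 fold change. Both genes were called lower in all 18 alternative fits, with PLIN4 between -1.29 and -0.96 and PLIN5 between -3.19 and -2.73.

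**Figure D1:**
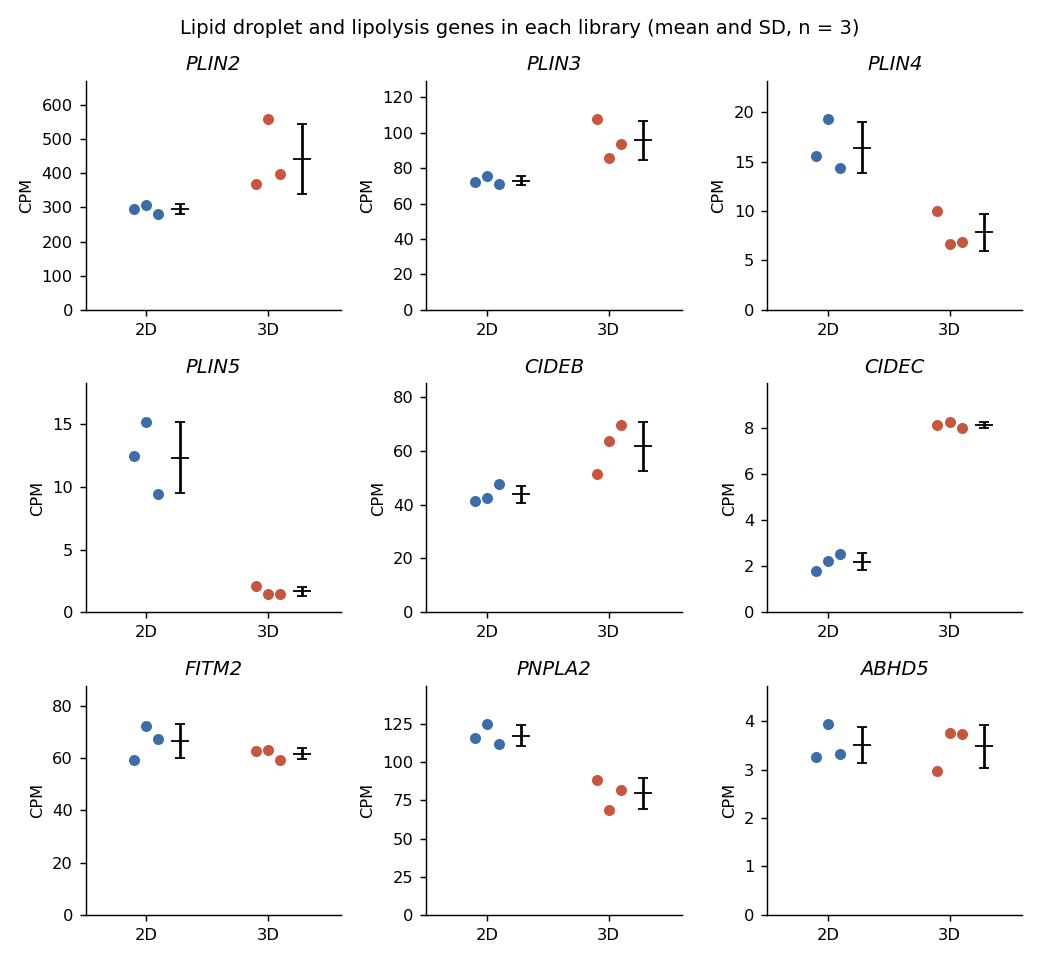
TMM-scaled CPM of the 9 genes in each library (points, 2D in blue and 3D in red), with the mean and SD of 3 samples (black). PLIN5 and PLIN4 lie lower in all 3D samples and CIDEC lies higher, while FITM2 and ABHD5 overlap.

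CIDEC, the protein that fuses droplets into larger ones and is abundant in fat cells and fatty liver, measured 1.82, 2.24 and 2.55 CPM in the 2D samples and 8.13, 8.27 and 8.01 CPM in the 3D samples. The 3D samples were close together and all more than 3 times the highest 2D sample, which rests on 46 counts. CIDEC (chromosome 3, 9866711 to 9880255) rose 3.67-fold (log2 1.88, SE 0.23, 95% interval 1.38 to 2.37), and 98.1% of tested genes had a lower log2 fold change. Its log2 fold change lay between 1.49 and 1.99 in all 18 alternative fits and was called in each.

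CIDEB (chromosome 14, 24305096 to 24311431), the liver form, measured 41.3, 42.4 and 47.5 CPM in the 2D samples and 51.5, 63.6 and 69.5 CPM in the 3D samples. The 3D samples were all higher, with 3D replicate 1 only slightly above the highest 2D sample. CIDEB rose 1.41-fold (log2 0.49, SE 0.14) and was not called without 2D replicate 1 (log2 0.45), 2D replicate 2 (0.45) or 3D replicate 3 (0.39). Corrected for length and GC content it had a log2 fold change of 0.23 (95% interval -0.09 to 0.55) and was not called. CIDEB overlaps LTB4R2 and NOP9 on the opposite strand (5698 and 4030 bases), and the strand handling of the counts is not given, so their reads cannot be told apart. NOP9, a nucleolar protein gene, had a mean of 172 CPM in 2D and 122 CPM in 3D.

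FITM2 (chromosome 20, 44302838 to 44311170), an endoplasmic reticulum protein needed for droplets to bud, measured 59.4, 72.4 and 67.4 CPM in the 2D samples and 62.6, 63.1 and 59.3 CPM in the 3D samples. The samples overlapped, and the log2 fold change was -0.11 with a 95% interval from -0.37 to 0.16. The interval does not show that the levels were equal.

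Among the lipolysis genes, PNPLA2 (chromosome 11, 818902 to 825574) measured 116, 125 and 112 CPM in the 2D samples and 88.1, 68.6 and 81.8 CPM in the 3D samples. All 3D samples lay below the lowest 2D sample. PNPLA2 fell by 0.56 on the log2 scale (SE 0.13), from 117 ± 6.70 to 79.5 ± 9.94 CPM. The fall was 0.89 with length and GC content corrected (log2 -0.89, 95% interval -1.08 to -0.69), and PNPLA2 was called lower in all 18 alternative fits.

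ABHD5 (chromosome 3, 43690113 to 43734372), the activator of PNPLA2, measured 3.26, 3.94 and 3.33 CPM in the 2D samples and 2.98, 3.75 and 3.73 CPM in the 3D samples, from 30 to 65 counts a sample. ABHD5 shares 1483 bases with ANO10 on the opposite strand, which averaged 9.26 CPM in 2D and 11.5 CPM in 3D, so reads of the pair cannot be told apart there, nor in ratios to ABHD5. The groups overlapped, with a log2 fold change of 0.00 (-0.0029) and a 95% interval from -0.55 to 0.55, and changes inside that interval were not detectable at this depth. Its sign depended on the fit, at 0.020 with upper-quartile scaling and 0.31 after the length and GC correction, and it was not called in any of 18 alternatives.

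**Figure D2:**
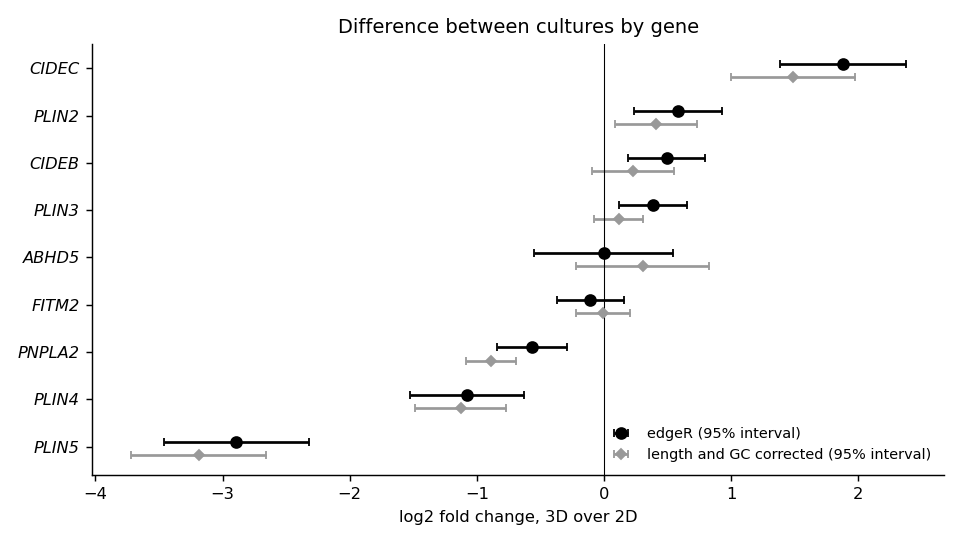
Log2 fold change (3D over 2D) with its 95% interval for each gene, from the edgeR fit (black circles) and with transcript length and GC content corrected (grey diamonds). PLIN5, PLIN4 and PNPLA2 stay below 0 in both and CIDEC and PLIN2 above 0, whereas the corrected intervals of CIDEB and PLIN3 include 0.

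To compare genes with each other, CPM was divided by the length of the longest GENCODE transcript in kb. On this scale the 2D order was PLIN2 (150 ± 6.92 CPM per kb), PNPLA2 (43.1 ± 2.46), PLIN3 (31.3 ± 1.02), CIDEB (18.2 ± 1.37), FITM2 (14.4 ± 1.43), PLIN5 (5.00 ± 1.16), PLIN4 (2.53 ± 0.394), CIDEC (1.73 ± 0.290) and ABHD5 (0.654 ± 0.0700). No neighbours in this order overlapped between samples. In 3D the order was PLIN2 (224 ± 51.6 CPM per kb), PLIN3 (41.0 ± 4.79), PNPLA2 (29.2 ± 3.65), CIDEB (25.5 ± 3.82), FITM2 (13.4 ± 0.446), CIDEC (6.37 ± 0.100), PLIN4 (1.21 ± 0.290), PLIN5 (0.681 ± 0.141) and ABHD5 (0.649 ± 0.0819). There PNPLA2 and CIDEB overlapped, as did PLIN5 and ABHD5. PLIN5 thus stood above CIDEC and PLIN4 on plates and below both in the bioreactor. These orders depend on the transcript length chosen, which for PLIN4 is 6484 bases against 2470 for PLIN5.

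As a share of the summed level per kb of PLIN1 to PLIN5, PLIN2 made up 79.7%, 78.9% and 79.5% in 2D and 79.1%, 87.9% and 82.6% in 3D. PLIN5 made up 2.67%, 3.09% and 2.13% in 2D and 0.356%, 0.187% and 0.245% in 3D. PLIN4 went from a mean of 1.34 ± 0.143% to 0.469 ± 0.169%. The PLIN2 share overlapped between cultures, while the PLIN4 and PLIN5 shares did not. The summed level itself was 189 ± 9.40 CPM per kb in 2D and 268 ± 47.2 CPM per kb in 3D (SD, n = 3 per group).

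Ratios of genes within a library do not depend on library scaling. PLIN2 per PLIN5 (counts per kb) was 29.8, 25.5 and 37.3 in 2D and 222, 470 and 338 in 3D, a 10.8-fold higher geometric mean. PLIN4 per PLIN5 was 0.477, 0.485 and 0.580 in 2D and 1.83, 1.71 and 1.78 in 3D, so the neighbours did not fall in proportion. CIDEB per CIDEC was 12.1, 10.0 and 9.86 in 2D and 3.36, 4.08 and 4.60 in 3D. For the lipase and its activator, PNPLA2 per ABHD5 was 69.8, 62.4 and 66.1 in 2D and 58.3, 36.0 and 43.2 in 3D. None of these ratios overlapped between the cultures, although for PNPLA2 per ABHD5 3D replicate 1 was near the 2D samples and the low ABHD5 counts add noise.

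**Figure D3:**
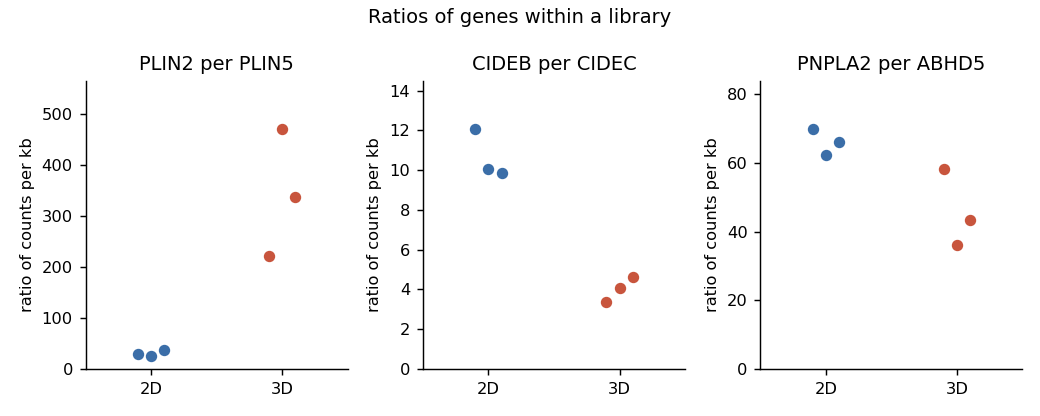
Ratios of counts per kb of transcript within each library (points, 2D in blue and 3D in red) for PLIN2 per PLIN5, CIDEB per CIDEC and PNPLA2 per ABHD5. PLIN2 per PLIN5 goes from at most 37.3 on plates to at least 222 in the bioreactor.

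PLIN4 and PLIN5 are neighbours on the minus strand of chromosome 19, separated by 4064 bases, and PLIN3 lies a further 303115 bases away. The genes within 100 kb were examined after the values of the pair were known. Of 10 genes in that window, 9 were tested. PLIN4, PLIN5 and CTB-50L17.14 fell, CHAF1A (a histone chaperone subunit), CTB-50L17.8, CTB-50L17.10 and SEMA6B (a semaphorin) were called higher, and UBXN6 and LRG1 were not called. CTB-50L17.14 (4528427 to 4540068) lies on the same strand and shares 6799 bases with PLIN5, so reads of the 2 cannot be told apart in that stretch. It went from 3.69 ± 0.672 to 0.391 ± 0.0820 CPM (log2 difference -3.18 with SE 0.37, adjusted p = 0.00014 in edgeR). LRG1, a secreted glycoprotein that begins 5.25 kb from the PLIN5 start and overlaps CTB-50L17.14 too, averaged 41.4 ± 4.32 CPM on plates and 32.5 ± 3.64 CPM in the bioreactor (log2 difference -0.35, adjusted p = 0.0682 in edgeR). It was called lower without 3D replicate 3 (log2 -0.44) and after the length and GC correction (log2 -0.51). SEMA6B had a log2 fold change of 0.67 and lost its call without 2D replicate 1 (0.65) or 2D replicate 2 (0.57). It was called at 0.38 without 3D replicate 1 and at 0.36 after the length and GC correction, but not at 0.30 without both 2D replicate 2 and 3D replicate 1. CTB-50L17.10 (0.59) lost its call without 2D replicate 2 (0.49), 2D replicate 3 (0.57) or 3D replicate 3 (0.56), and was at 0.35, not called, without both 2D replicate 2 and 3D replicate 1. The other gene that overlaps PLIN4 is CTB-50L17.10, by 33 bases on the opposite strand.

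**Figure D4:**
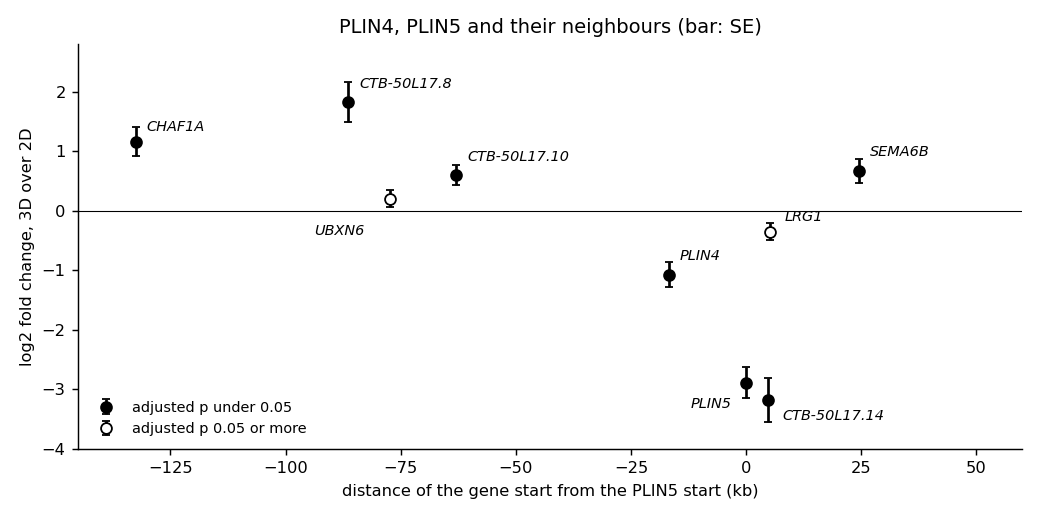
Log2 fold change (3D over 2D, bar SE) of 9 tested genes within 100 kb of PLIN4 and PLIN5, by distance of the gene start from the PLIN5 start in kb. PLIN5 and the overlapping CTB-50L17.14 lie lowest, at -2.89 and -3.18, while SEMA6B at 24.6 kb lies above 0.

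The genes whose profile over the 6 samples was most like that of PLIN5 and of CIDEC, the members with the largest differences, were sought among 11314 genes with a mean of at least 5 CPM. The measure was the root mean square difference between log2 CPM profiles, each centred on its own mean. Because PLIN5 and CIDEC were picked for their difference between cultures, this measure favours genes with a similar difference. The likeness therefore says little beyond that contrast. Nearest to PLIN5 were ARHGEF2 (0.26 log2 units), from 108 ± 12.1 to 21.6 ± 1.45 CPM, CCAT1 (0.34), a long noncoding RNA, from 49.2 ± 7.19 to 8.65 ± 2.37 CPM, and SLC17A2 (0.35), a phosphate transporter family member, from 53.8 ± 15.4 to 9.06 ± 1.90 CPM. Nearest to CIDEC were RTN4RL2 (0.11), from 5.70 ± 1.21 to 19.7 ± 1.10 CPM, ATP6V0E2 (0.13), a subunit of the proton pump of acidic compartments, from 59.6 ± 13.3 to 179 ± 10.6 CPM, and LEAP2 (0.14), a liver peptide hormone, from 4.49 ± 1.12 to 15.6 ± 1.98 CPM.

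A further 73 genes of droplets, lipases, neutral lipid synthesis, regulation and fatty acid use, none of them members, were listed by function. Earlier results of these data were known when they were listed, so their shares called and p-values are descriptions. Of these, 69 were matched and 67 tested, and CIDEA, LIPE, MGLL and PDK4 were not analysed here. In 3D, 20 of the 67 rose (29.9%, beside 19.0% of all tested genes) and 14 fell (20.9%, beside 17.6%), with a median log2 fold change of 0.09. Without 2D replicate 1 the number higher was 12.

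Of 18 tested genes of the droplet surface and of droplet formation, 7 rose (38.9%, beside 19.0% of all tested genes) and 4 fell (22.2%, beside 17.6%). The number higher was 3 without 2D replicate 1, 4 without 3D replicate 2, 2 without both 2D replicate 2 and 3D replicate 1, and 4 after the length and GC correction with a replicate block. HILPDA, a small droplet protein that inhibits PNPLA2 and is induced by low oxygen, rose from 3.94 ± 0.433 to 9.47 ± 3.53 CPM (log2 difference 1.26 with SE 0.28, adjusted p = 0.00566 in edgeR). PNPLA3, a droplet hydrolase related to PNPLA2 and a well known locus of fatty liver risk, rose from 7.97 ± 1.27 to 13.8 ± 3.05 CPM (log2 difference 0.79 with SE 0.21, adjusted p = 0.0116 in edgeR). Its call was lost without 2D replicate 1 (log2 0.72), 2D replicate 2 (0.71) or 3D replicate 2 (0.61), and it overlaps SAMM50 on the same strand, which went from a mean of 30.2 to 55.2 CPM. VPS13A, a lipid transfer protein found at droplet contacts, fell from 125 ± 1.54 to 53.4 ± 3.54 CPM (log2 difference -1.22 with SE 0.11, adjusted p = 4.98e-05 in edgeR), and by 0.60 on the log2 scale with length and GC content corrected. ACSL3, the acyl-CoA synthetase of growing droplets, fell by 1.14 on the log2 scale.

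Of 11 other lipases and lipid hydrolases, 5 rose (45.5%, beside 19.0% of all tested genes) and 0 fell (beside 17.6%). Only 2 were called higher without 2D replicate 1 or without 2D replicate 2, and 3 without 2D replicate 3, without 3D replicate 2 or with no filter on low counts. CES1, a carboxylesterase of the liver that hydrolyses neutral lipids, rose from 98.6 ± 12.0 to 271 ± 64.0 CPM (log2 difference 1.46 with SE 0.18, adjusted p = 0.000215 in edgeR). LIPC, the secreted hepatic lipase, rose from 17.0 ± 5.25 to 28.2 ± 2.32 CPM (log2 difference 0.73 with SE 0.20, adjusted p = 0.0145 in edgeR). LIPC lost its call without 2D replicate 1 (log2 0.59), 2D replicate 2 (0.60) or 3D replicate 3 (0.66). PNPLA2 fell while these rose, and the difference between them was not tested.

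Of 13 genes of neutral lipid synthesis and export, 2 rose (15.4%, beside 19.0% of all tested genes) and 4 fell (30.8%, beside 17.6%). The number lower was 2 without both 2D replicate 2 and 3D replicate 1. AGPAT2, which acylates lysophosphatidic acid in the endoplasmic reticulum, rose from 2.44 ± 1.01 to 43.7 ± 12.0 CPM (17.7-fold, log2 difference 4.15 with SE 0.31, adjusted p = 3.61e-05 in edgeR). DGAT1, which makes triglyceride from diacylglycerol, rose from 51.4 ± 12.2 to 94.1 ± 10.4 CPM (log2 difference 0.87 with SE 0.17, adjusted p = 0.00292 in edgeR), and overlaps HSF1 on the opposite strand. DGAT2, the other enzyme of that step, averaged 56.0 ± 6.71 CPM on plates and 63.6 ± 13.9 CPM in the bioreactor (log2 difference 0.18, adjusted p = 0.408 in edgeR). GPAT3 and GPAM, acyltransferases of the first step of glycerolipid synthesis, fell from 9.32 ± 1.86 to 4.67 ± 0.952 CPM (log2 -0.99) and from 253 ± 14.8 to 149 ± 28.7 CPM (log2 -0.76). The log2 fold change of GPAM was -0.45 after the length and GC correction, and GPAT3 was not called without both 2D replicate 2 and 3D replicate 1 (log2 -0.76).

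Of 16 regulators, 3 rose (18.8%, beside 19.0% of all tested genes) and 5 fell (31.2%, beside 17.6%). PPARA, the fatty acid sensor that drives oxidation genes and PLIN5 in liver, fell by 0.89 on the log2 scale (SE 0.12), and by 0.55 with length and GC content corrected. Its coactivator PPARGC1A fell from 76.1 ± 13.1 to 15.1 ± 2.54 CPM, and FOXO1, a transcription factor active in fasting that raises PNPLA2, fell from 50.2 ± 2.38 to 23.9 ± 5.04 CPM (log2 difference -1.07 with SE 0.16, adjusted p = 0.000486 in edgeR). PPARG, the fat cell member of the PPAR family, averaged 24.9 ± 2.43 CPM on plates and 23.0 ± 2.88 CPM in the bioreactor (adjusted p = 0.576 in edgeR). CEBPA, a transcription factor of liver and fat cells, rose from 125 ± 17.5 to 212 ± 9.37 CPM (log2 difference 0.76, adjusted p = 0.00118 in edgeR), and by 0.42 on the log2 scale after the length and GC correction. PRKACA, a catalytic subunit of the kinase that triggers lipolysis, rose from 38.8 ± 0.652 to 54.4 ± 4.28 CPM (log2 difference 0.49, adjusted p = 0.00854 in edgeR). Another catalytic subunit, PRKACB, fell (log2 difference -0.60, adjusted p = 0.0119 in edgeR), with the limits given under other observations.

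Of 9 tested genes of fatty acid sensing and use, many of them PPAR alpha targets, 3 rose and 1 fell. The shares were 33.3% higher, beside 19.0% of all tested genes, and 11.1% lower, beside 17.6%. The number higher was 5 without 3D replicate 1 and 6 after the length and GC correction. ANGPTL4, a secreted lipase inhibitor that is also induced by low oxygen, rose from 2.35 ± 0.467 to 16.9 ± 5.59 CPM (log2 2.84, SE 0.29). ACSL1, the main acyl-CoA synthetase of the liver, fell from 94.0 ± 14.5 to 69.1 ± 4.73 CPM (log2 difference -0.44, adjusted p = 0.0237 in edgeR). ACSL1 lost its call without 2D replicate 2 (log2 -0.33), without 3D replicate 2 (log2 -0.43) and after the length and GC correction (log2 -0.33), and was at -0.28 without both 2D replicate 2 and 3D replicate 1.

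**Figure D5:**
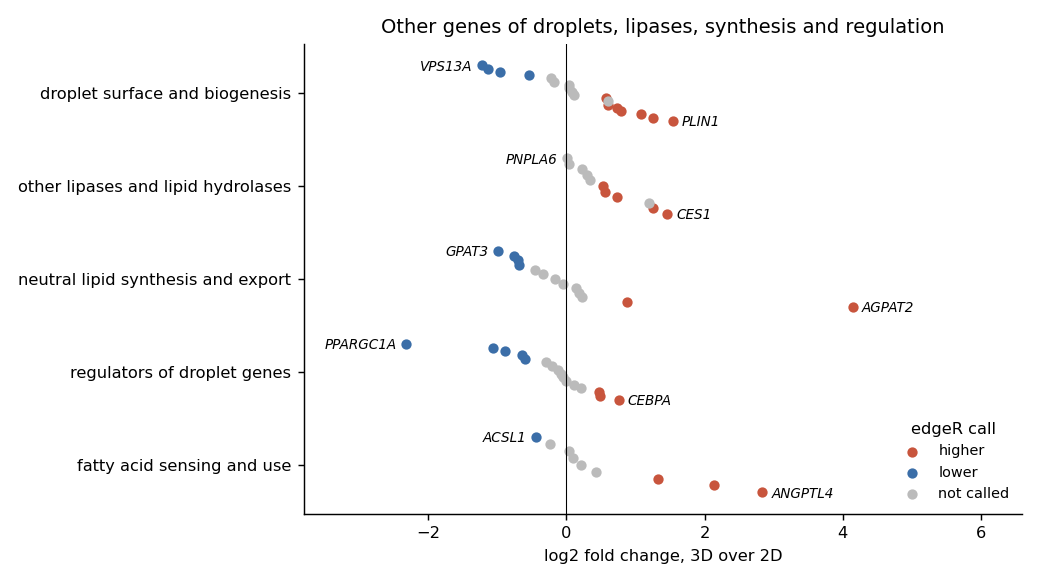
Log2 fold change (3D over 2D) of 67 tested genes in 5 groups by function, 1 point a gene, coloured by the edgeR call at an adjusted p of 0.05. None of the 11 other lipases lies on the lower side as called, and the most extreme values are AGPAT2 at 4.15 and PPARGC1A at -2.32.

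Total counts were 16270361 to 17943513 in 2D and 9530795 to 15897621 in 3D, and 3D replicate 1 had the fewest counts and lay apart from the other 3D samples on the second principal component (14.1% of variance). Without it, PLIN5 (log2 -3.07), PLIN4 (log2 -1.29), PNPLA2 (log2 -0.66), CIDEC (log2 1.86), CIDEB (log2 0.59) and PLIN2 (log2 0.68) kept their calls. All 8 hepatocyte genes checked were above 5 CPM on average, with a summed level of 36647 to 41173 CPM in 2D and 27390 to 43250 CPM in 3D. Within that sum APOB, the lipoprotein scaffold, was called lower (log2 -1.42, from a mean of 17756 to 6631 CPM) and APOA1, of high density lipoprotein, was called higher (log2 1.39, from 1232 to 3219 CPM). Because some members are fat cell genes, 8 adipocyte genes were listed, of which ADIPOQ, LEP, FABP4, CIDEA and LPL were not analysed here. PLIN1, the fat cell perilipin, averaged 0.703 ± 0.394 CPM on plates and 2.10 ± 0.537 CPM in the bioreactor (log2 difference 1.54 with SE 0.46, adjusted p = 0.0213 in edgeR), and lost its call without 2D replicate 1 (log2 1.15), 3D replicate 1 (1.33) or 3D replicate 2 (1.57). The summed adipocyte genes, PLIN1, GPD1 and ADIPOR2, were at 110 to 126 CPM in 2D and 154 to 190 CPM in 3D. Most of that sum was ADIPOR2, with a mean of 105 CPM in 2D and 125 CPM in 3D, which was not called. GPD1 was called higher, from a mean of 11.8 to 50.4 CPM. Any link of these genes to the rise of CIDEC was not tested. PLIN1 values rest on only 4, 16 and 16 counts on plates and 27, 31 and 23 in the bioreactor. The gene overlaps PEX11A on the same strand, and PEX11A went from a mean of 6.90 to 10.2 CPM. Reads of the pair cannot be told apart there. Of the other lists, 4 of 7 macrophage or blood genes were matched (CD14, CD68, LYZ and HBA1). Their sums were 980 to 1477 CPM in 2D and 437 to 1015 CPM in 3D. Nearly all of this was LYZ, at a mean of 1276 CPM in 2D and 722 CPM in 3D, which was not called. CD68 went against the sum and was called higher, from a mean of 7.62 to 32.0 CPM. PDGFRB, the 1 of 7 fibroblast genes matched, was called lower, and 3 of 4 endothelial genes summed to at most 5.49 CPM.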

How the data were processed

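Messenger RNA was measured in 3 plate and 3 bioreactor samples, grouped and numbered from their titles. The deposited values are estimated counts per gene, made by the authors without scaling. The submitters' processing notes name hg38, Partek and STAR 2.4.1d. How reads were counted and whether strand was used is not given in these sources. Of the deposited values, 61.7% were whole numbers (tolerance 0), and the lowest gene total was 10. Rounded counts were filtered (filterByExpr), TMM-scaled and fitted by robust quasi-likelihood in edgeR 4.0.16 under R 4.3.3, with no covariate besides culture. P-values were adjusted by Benjamini-Hochberg over 15314 genes. Standard errors come from the F statistic, and 95% intervals from the t distribution of the fit. No 2 samples of a group agreed within sampling noise (chi-square per degree of freedom 11.1 to 28.5). A count of 3 corresponds to 0.167 to 0.298 CPM, for counting error only.

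The members and gene lists were chosen with earlier results of these data known. Every member is named. Of the 73 other genes, up to 2 called genes per direction and group with at least 5 CPM in the higher culture are named, plus HILPDA, LIPE, MGLL, DGAT2, PPARA and PPARG, and 1 gene under this rule is not reported here. Lengths and GC content came from GENCODE 29 (16132 genes by symbol, 289 by synonym), and promoter windows from RefSeq GRCh38.p14, where all 9 members matched. Alternatives were DESeq2 1.42.0, limma-voom (limma 3.58.1), scaling by RLE, by upper quartiles or on genes other than mitochondrial ones and the top 50, a filter of 1 CPM in 3 samples, no filter, the replicate block, a loess correction (span 0.5) for length and GC content, coding genes only, and samples left out. The scripts were tested on simulated data.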

Additional observations from a re-analysis of the deposited data

How the results depend on the processing

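PLIN5, PLIN4, PNPLA2 and CIDEC kept their direction and their call in all 18 alternative fits, PLIN2 its direction in all 18 and its call in 15, CIDEB its call in 13 and PLIN3 in 10. With length and GC content corrected, 2 members were called higher, and 1 with the replicate block as well, in place of 4. Leaving out 1 sample at a time gave 1 to 4 members higher and 3 lower, and 7 to 8 members whose groups did not overlap. It gave 12 to 22 of the other droplet genes higher and 1938 to 2817 of all genes higher, the lowest in both without 2D replicate 1. Leaving out a sample also leaves fewer samples to test. With levels unchanged it cannot make separated groups overlap, so the 7 could not fall. ABHD5, not called in any fit, went from -0.0029 to above 0 with limma-voom (0.010), upper-quartile scaling (0.020), scaling without mitochondrial and top genes (0.0048), length and GC content corrected (0.31, and 0.30 with the block), without 2D replicate 2 (0.07), without 3D replicate 1 (0.08) and without both (0.17), and ranged from -0.061 to 0.077 with 1 sample left out. The cause was not tested. The replicate number as a block left 4 members higher and 3 lower. Deviations of same-numbered samples correlated at 0.05, -0.01 and -0.08, and not every sample correlated best with its own number. No pairing by number was seen, but with 3 samples a group this check cannot exclude it. The ratio of PNPLA2 to G0S2 was not run. Depth limits ABHD5 (30 to 65 counts a sample), CIDEC on plates (29 to 46) and PLIN5 in the bioreactor (21 to 23).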

Other observations

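Several other droplet genes, chosen after their values were seen, also differed between the cultures. BSCL2 (seipin) and TMEM159 (LDAF1), partners at the sites where droplets form, rose from 2.35 ± 0.798 to 4.98 ± 1.11 CPM (log2 difference 1.07, adjusted p = 0.0199 in edgeR) and from 7.07 ± 0.429 to 11.9 ± 2.61 CPM (log2 difference 0.74, adjusted p = 0.0129 in edgeR). BSCL2 shares its span with the same-strand gene HNRNPUL2-BSCL2, at means of 19.4 and 33.9 CPM, and was not called without 2D replicate 3 (log2 0.81), without 3D replicate 1 (0.87) or with length and GC content corrected (0.81). TMEM159 was called in 15 of 18 alternative fits, and 1 fit without a call was that without 2D replicate 1 (log2 0.69). With 1 sample left out, its log2 fold change was 0.54 to 0.84. CD36, a fatty acid uptake receptor, rose from 0.679 ± 0.386 to 3.03 ± 0.462 CPM (log2 difference 2.13 with SE 0.43, adjusted p = 0.00292 in edgeR). Its plate values rest on only 4, 13 and 18 counts, so the size of this rise is uncertain.

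The phosphatidate phosphatases LPIN1 and LPIN2, which make the diacylglycerol used by DGAT1, fell from 25.7 ± 4.92 to 15.7 ± 2.51 CPM (log2 difference -0.70, adjusted p = 0.0112 in edgeR) and from 99.0 ± 6.74 to 61.6 ± 3.27 CPM (log2 difference -0.68, adjusted p = 0.0011 in edgeR). LPIN1 was called in 16 of 18 alternative fits, and 1 fit without a call was that without 2D replicate 1 (log2 -0.63). PDE3B, the phosphodiesterase through which insulin restrains lipolysis, fell from 64.7 ± 5.30 to 41.3 ± 10.3 CPM (log2 difference -0.64, adjusted p = 0.0112 in edgeR). PDE3B had a log2 fold change of -0.38, still called, with length and GC content corrected, and was not called without both 2D replicate 2 and 3D replicate 1 (log2 -0.52). PRKACB, a second catalytic kinase subunit, fell from 14.7 ± 0.685 to 9.71 ± 0.609 CPM (log2 difference -0.60, adjusted p = 0.0119 in edgeR), and was not called without 2D replicate 1 (log2 -0.57) or with length and GC content corrected (log2 -0.35).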
